A study of Mus musculus with 12 samples.

Results

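The MAP kinase phosphatases, the dual-specificity phosphatases (DUSP) that act on MAP kinases, were examined in B16-OVA cells treated with a MEK inhibitor. The genes were Dusp1, Dusp2, Dusp4, Dusp5, Dusp6, Dusp7, Dusp8, Dusp10 and Dusp16. They were represented by every probe set that the array annotation pairs with 1 of these genes alone, which gave 15 probe sets for 9 genes, of 45037 probe sets and 18193 genes with a probe set of their own. B16-OVA is a mouse melanoma line that carries ovalbumin as a model antigen. The cells were cultured alone, so the values describe 1 cell line without immune or stromal neighbours. The comparison had 4 groups, each with 3 arrays, 1 array per RNA sample: 100 nM GDC-0623 (MEKi) for 24 h, DMSO for 24 h, MEKi for 72 h and DMSO for 72 h. The series calls the samples biological replicates but does not say that they came from separate cultures. The p-values here set each group difference against the scatter between samples of a group, and that scatter may be technical.

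MAP kinases are switched on when a MAP kinase kinase phosphorylates a threonine and a tyrosine in their activation loop, and the phosphatases described here remove both phosphates. In the canonical cascade RAS activates RAF, RAF activates MEK and MEK activates ERK. GDC-0623 blocks MEK. Several of these phosphatases are themselves induced by ERK signalling and form a negative feedback loop, and they fall into 3 classes by location and substrate. Dusp1, Dusp2, Dusp4 and Dusp5 encode nuclear, inducible enzymes. Dusp6 and Dusp7 encode cytoplasmic enzymes that prefer ERK. Dusp8, Dusp10 and Dusp16 encode enzymes that prefer the stress-activated kinases JNK and p38.

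The values were log2 signals after robust multichip averaging (RMA), which brings the arrays to similar distributions. Each value is relative to other arrays at the same probe set. Levels of different probe sets were used only to rank probe sets as bright or dim and to read cell type markers. The array medians lay between 5.31 and 5.34 at 24 h and between 5.36 and 5.42 at 72 h, without overlap. The correlation between 2 arrays of a group was 0.996 to 0.998 over all probe sets. All 7 melanocytic markers were bright on every array, between 11.91 and 14.37. Immune markers lay between 2.81 and 5.79, fibroblast markers between 3.72 and 7.51, endothelial markers between 3.06 and 6.2 and epithelial markers between 3.25 and 6.56. The summed fibroblast signal was 7.90 to 8.08 in MEKi arrays at 24 h, against 7.50 to 7.61 in DMSO arrays. Of these 5 markers Col1a2 was called higher (0.69) and Pdgfra lower (-0.36), and 3 were not called. The summed melanocytic signal (16.54 to 16.58 in MEKi arrays, against 16.40 to 16.42 in DMSO arrays) and the summed epithelial signal (7.10 to 7.21 in MEKi arrays, against 7.06 to 7.09 in DMSO arrays) were also apart at 24 h. The summed immune signal was 6.995 to 7.209 in MEKi arrays at 72 h, against 6.821 to 6.91 in DMSO arrays, with Cd68 called higher (0.66, adjusted p = 0.0279). The part of these markers in the differences was not tested.

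MEK inhibition moved these phosphatases in both directions. Dusp6 was lower at both times by more than any other of the 15 probe sets. Dusp10 was higher at both times. Dusp1 and Dusp2 were called higher, and Dusp4 lower, at 24 h, whereas Dusp8 and Dusp16 were called higher at 72 h. A call is an adjusted p under 0.05 in limma, an empirical Bayes test, with Benjamini-Hochberg adjustment over all 45037 probe sets. At 24 h, 3 of the 15 probe sets were called higher and 3 lower in MEKi arrays, where 3.83% and 4.61% of all probe sets were. Counted by the brightest probe set of each gene, 3 of 9 genes were higher and 2 lower, where 5.01% and 5.86% of all genes were. At 72 h, 4 of the 15 probe sets were called higher and 1 lower, where 2.99% and 4.25% of all probe sets were. By gene, 3 of 9 were higher and 1 was lower, where 4.03% and 5.14% of all genes were. The groups did not overlap at 8 of the 15 probe sets at 24 h, where 28.1% of all probe sets did not overlap, and at 8 of the 15 at 72 h, where 24.6% did not. The median log2 difference over the 15 probe sets was 0.03 at 24 h and 0.12 at 72 h, beside 0.01 over all probe sets at each time. At 24 h 9 of the 15 differences were positive and 5 negative, and at 72 h 9 were positive and 6 negative.

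**Figure D1:**
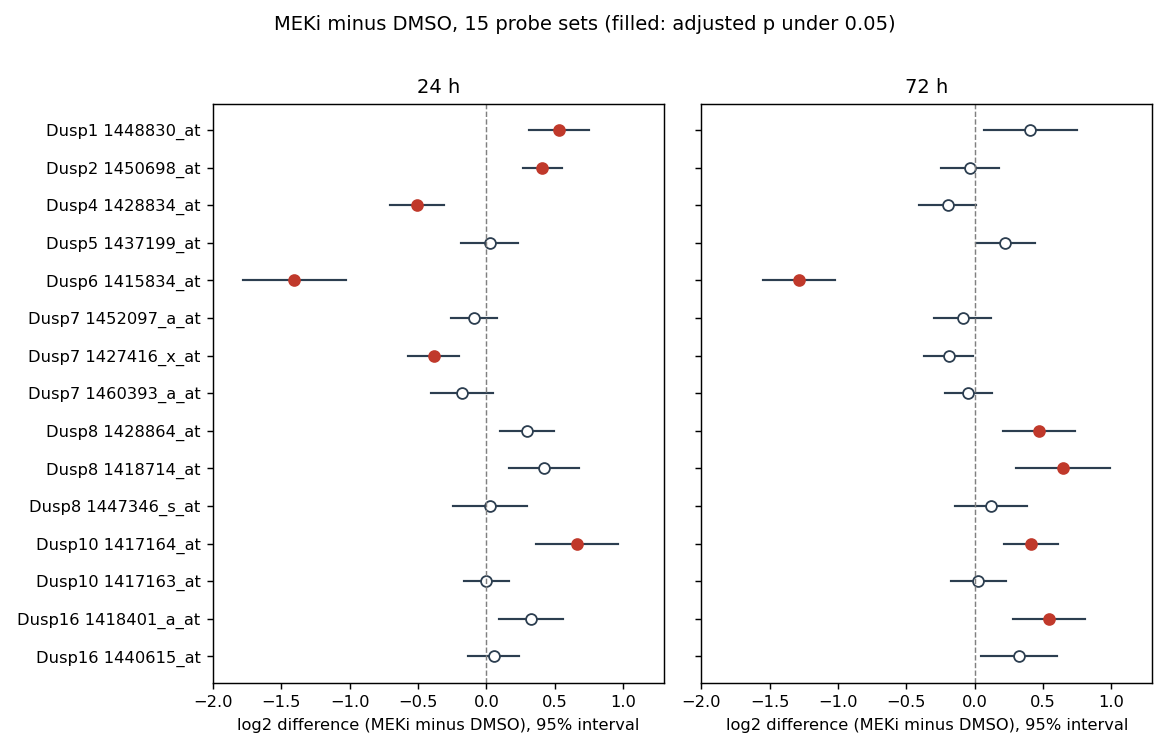
Log2 difference between MEKi and DMSO arrays (x axis) for each of the 15 probe sets (y axis) at 24 h (left) and 72 h (right), with its 95% interval from limma and 3 arrays per group. Filled points have an adjusted p under 0.05. Dusp6 lies at -1.41 and -1.29, far to the left of every other probe set, and Dusp10, Dusp8 and Dusp16 lie to the right of 0 at 72 h.

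The promoters of 8 members were given in RefSeq on the GRCm38.p6 build, as windows of 300 bases around the gene start, 250 of them before it. The remaining member, Dusp4, was not used here. Searched on both strands were 4 motifs, the ETS site CCGGAAGT, the AP-1 site TGANTCA, the cAMP response element (CRE) TGACGTCA and the CArG box, which serum response factor binds. No motif overlapped another. These sites are background to the members because ETS factors, AP-1 and serum response factor are end points of ERK signalling and CRE is bound by the CREB and ATF factors. Of all 32851 windows, 3.89% held the ETS site, 7.81% the AP-1 site, 1.79% the CRE and 1.63% a CArG box. Shown are the window of Dusp6, whose signal fell most, and those of Dusp1 and Dusp8, which held the CRE, in capitals. All are written 5′ to 3′ on the strand of the gene.
Dusp6, chr10:99262981-99263280, plus strand: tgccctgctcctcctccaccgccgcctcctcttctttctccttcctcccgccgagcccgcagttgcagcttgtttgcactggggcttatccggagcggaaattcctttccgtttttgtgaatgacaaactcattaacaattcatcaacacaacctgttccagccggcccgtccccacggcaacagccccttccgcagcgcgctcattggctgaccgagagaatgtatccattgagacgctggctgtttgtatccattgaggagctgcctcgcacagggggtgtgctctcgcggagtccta
Dusp1, chr17:26508423-26508722, minus strand: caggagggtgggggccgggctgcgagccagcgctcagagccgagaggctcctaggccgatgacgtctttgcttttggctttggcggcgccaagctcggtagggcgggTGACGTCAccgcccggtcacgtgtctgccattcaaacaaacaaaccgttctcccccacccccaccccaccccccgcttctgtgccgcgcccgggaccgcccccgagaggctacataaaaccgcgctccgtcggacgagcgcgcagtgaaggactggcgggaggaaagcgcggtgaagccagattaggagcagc
Dusp8, chr7:142095235-142095534, minus strand: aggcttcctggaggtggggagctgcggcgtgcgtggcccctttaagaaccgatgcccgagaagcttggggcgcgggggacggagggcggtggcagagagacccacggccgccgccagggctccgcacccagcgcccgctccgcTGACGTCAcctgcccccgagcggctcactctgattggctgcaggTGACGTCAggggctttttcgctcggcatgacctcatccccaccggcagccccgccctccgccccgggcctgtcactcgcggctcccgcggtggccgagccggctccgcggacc
The CRE began at position -143 from the gene start in Dusp1 and at -107 and -63 in Dusp8. Dusp5 held 2 CArG boxes side by side, at -82 and -72. The windows of Dusp2, Dusp6, Dusp7, Dusp10 and Dusp16 held none of the 4 motifs. A match is a description of the sequence and not a measured binding site.

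Dusp6, the cytoplasmic phosphatase that binds and inactivates ERK, was the member with the largest change. At 24 h its signal was 9.95, 9.88 and 10.58 in MEKi arrays, against 11.49, 11.57 and 11.57 in DMSO arrays. At 72 h it was 9.85, 9.51 and 9.82 in MEKi arrays, against 11.17, 11.03 and 10.84 in DMSO arrays. All 6 MEKi arrays thus lay below all 6 DMSO arrays, and replicate 3 of the 24 h MEKi group stood above its 2 partners. The 24 h difference was -1.41 ± 0.17 on the log2 scale (SE), 2.65-fold lower, with an adjusted p of 0.00401. The 72 h difference was -1.29 ± 0.12, 2.44-fold lower, with an adjusted p of 0.000671. Without any 1 array the adjusted p stayed at or below 0.0243 at 24 h and 0.00529 at 72 h. The effects at the 2 times differed by 0.12, with a 95% interval from -0.35 to 0.59 and an adjusted p of 0.866. The 4 groups were ordered, from high to low, DMSO at 24 h, DMSO at 72 h, MEKi at 24 h and MEKi at 72 h, and no neighbours in that order overlapped.

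Dusp7, the other cytoplasmic ERK phosphatase, had 3 probe sets that differed in their calls. The probe set 1427416_x_at read 6.15, 6.37 and 6.44 in MEKi arrays at 24 h, against 6.72, 6.69 and 6.71 in DMSO arrays. Its signal fell by 0.39 ± 0.08 (adjusted p = 0.0265), with no overlap between the groups. The suffix _x_at marks a probe set with probes that may also match other sequences. The call ended without any 1 of the DMSO arrays or without MEKi replicate 1 or 2 (adjusted p up to 0.0873). The brightest probe set, 1452097_a_at, read 7.32, 7.42 and 7.31 in MEKi arrays, against 7.38, 7.38 and 7.56 in DMSO arrays, and these ranges overlapped. Its difference was -0.09, with a 95% interval from -0.26 to 0.08, and that of 1460393_a_at was -0.18, with an interval from -0.41 to 0.05. When the 3 probe sets were averaged per array, the 24 h difference was -0.22 with an adjusted p of 0.0202. At 72 h the differences were -0.19, -0.09 and -0.05 in the same order, with adjusted p from 0.218 to 0.811. All 6 differences were negative, and 1 of them passed the test.

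Dusp4, a nuclear phosphatase of ERK and JNK, was lower at 24 h. It read 10.09, 10.17 and 10.39 in MEKi arrays, against 10.70, 10.70 and 10.78 in DMSO arrays, and the groups did not overlap. The difference was -0.51 ± 0.09, 1.42-fold lower, with an adjusted p of 0.0118. The call ended without MEKi replicate 1 or 2, with an adjusted p of up to 0.0548. At 72 h it read 9.73, 9.44 and 9.64 in MEKi arrays, against 9.82, 9.81 and 9.77 in DMSO arrays. These ranges were apart by 0.04 and the difference of -0.20, with a 95% interval from -0.40 to 0.01, was not called (adjusted p = 0.278). The effects at the 2 times differed by 0.31 with an adjusted p of 0.239, so that a smaller effect at 72 h was not established.

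Dusp1, an immediate early gene whose product dephosphorylates p38 and JNK as well as ERK, was higher at 24 h. It read 9.46, 9.37 and 9.12 in MEKi arrays, against 8.88, 8.71 and 8.77 in DMSO arrays, without overlap. The difference was 0.53 ± 0.10, 1.44-fold higher, with an adjusted p of 0.0153. The call ended without DMSO replicate 2 or 3 or MEKi replicate 1 or 2 (adjusted p up to 0.0674). At 72 h Dusp1 read 8.12, 8.72 and 8.56 in MEKi arrays, against 7.86, 8.09 and 8.23 in DMSO arrays. MEKi replicate 1 overlapped the DMSO range there, and the difference of 0.41 ± 0.15 was not called (adjusted p = 0.163). It was called with the replicate number as a block, at an adjusted p of 0.0413, and without MEKi replicate 1, at an adjusted p of 0.0466. Each MEKi array at 72 h lay above the DMSO array of the same number.

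Dusp2, a nuclear phosphatase best known from activated immune cells, was higher at 24 h and not at 72 h. It read 8.73, 8.84 and 8.86 in MEKi arrays at 24 h, against 8.40, 8.41 and 8.39 in DMSO arrays. The DMSO arrays differed by 0.02 at most and all MEKi arrays lay above them. The difference was 0.41 ± 0.06, 1.33-fold higher, with an adjusted p of 0.00856, and it stayed at or below 0.0431 without any 1 array. At 72 h Dusp2 read 8.51, 8.23 and 8.41 in MEKi arrays, against 8.49, 8.34 and 8.43 in DMSO arrays. These ranges overlapped, and the difference of -0.04 had a 95% interval from -0.25 to 0.18. Dusp2 was the 1 probe set of the 15 whose effect was called different between the times, lower at 72 h, with a difference of -0.45 ± 0.11, where 1.66% of all probe sets were called in this direction. The adjusted p was 0.0498. It rose above the threshold when arrays were centred on their medians (0.0562) and without 1 array in 10 of 12 cases, every array but 72 h MEKi replicate 1 and 72 h DMSO replicate 2 (adjusted p up to 0.123).

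Dusp5, a nuclear phosphatase specific for ERK, was not called at either time. It read 5.38, 5.54 and 5.20 in MEKi arrays at 24 h, against 5.37, 5.39 and 5.29 in DMSO arrays. At 72 h it read 5.54, 5.62 and 5.84 in MEKi arrays, against 5.40, 5.51 and 5.42 in DMSO arrays. The groups overlapped at 24 h and were apart at 72 h. The differences were 0.02 (95% interval -0.18 to 0.23, adjusted p = 0.919) and 0.22 (95% interval 0.01 to 0.44, adjusted p = 0.231).

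**Figure D2:**
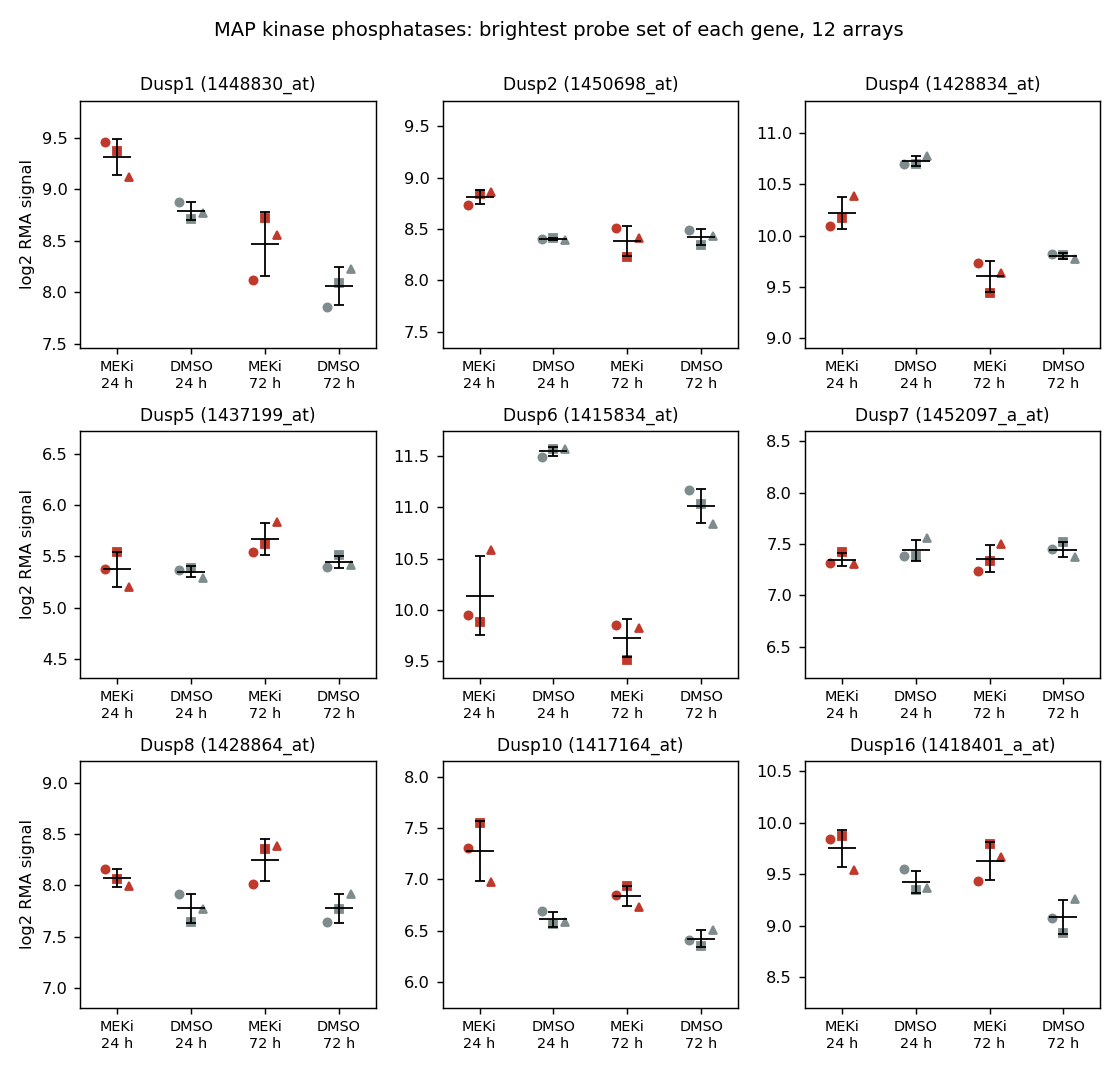
Log2 RMA signal (y axis) of the brightest probe set of each gene in MEKi (red) and DMSO (grey) arrays at 24 h and 72 h (x axis). Circles, squares and triangles are replicates 1, 2 and 3, the horizontal line is the mean and the bar is 1 SD (n = 3), and each panel spans the same range of 2.4 log2 units. Dusp6 shows the widest gap between MEKi and DMSO at both times, whereas Dusp2 stands apart at 24 h only.

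The 3 genes of the JNK and p38 class had 7 probe sets. At 24 h 1 of the 7 was called higher, where 3.83% of all probe sets were, and at 72 h 4 were, at least 1 for each gene, where 2.99% of all probe sets were. Dusp8 was read by 3 of them. At 24 h the brightest, 1428864_at, read 8.16, 8.06 and 7.99 in MEKi arrays, against 7.92, 7.64 and 7.77 in DMSO arrays. The probe set 1418714_at read 7.78, 7.52 and 7.43 in MEKi arrays, against 7.33, 7.02 and 7.12 in DMSO arrays. The groups were apart at both probe sets. Their differences were 0.29 (95% interval 0.10 to 0.49, adjusted p = 0.0761) and 0.42 (95% interval 0.16 to 0.68, adjusted p = 0.0556), and neither was called. The second was called without MEKi replicate 3, at an adjusted p of 0.046, and with the replicate number as a block, at an adjusted p of 0.0239. At 72 h 1428864_at read 8.01, 8.35 and 8.38 in MEKi arrays, against 7.64, 7.77 and 7.92 in DMSO arrays. At 1418714_at the values were 7.44, 8.09 and 7.91 in MEKi arrays, against 7.14, 7.04 and 7.33 in DMSO arrays. MEKi replicate 1 was the lowest of its group at both probe sets and still lay above the DMSO arrays. The differences of 0.47 ± 0.12 (adjusted p = 0.0424) and 0.64 ± 0.15 (adjusted p = 0.0354) were called, 1.39-fold and 1.56-fold higher. Both calls ended without DMSO replicate 1 or 2 or MEKi replicate 2 or 3, with an adjusted p of up to 0.164 and 0.133. The third probe set, 1447346_s_at, overlapped at both times, with differences of 0.03 and 0.12. With all 3 averaged the 72 h adjusted p was 0.0669. The effects at the 2 times were not called different at any Dusp8 probe set, with adjusted p from 0.664 to 0.88.

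Dusp10, a phosphatase of JNK and p38, was called at both times. Its probe set 1417164_at read 7.30, 7.55 and 6.97 in MEKi arrays at 24 h, against 6.69, 6.56 and 6.58 in DMSO arrays. At 72 h it read 6.85, 6.93 and 6.73 in MEKi arrays, against 6.41, 6.35 and 6.51 in DMSO arrays. All 6 MEKi arrays lay above all 6 DMSO arrays. The differences were 0.66 ± 0.13 (adjusted p = 0.0207), 1.58-fold higher at 24 h, and 0.41 ± 0.09 (adjusted p = 0.0219), 1.33-fold higher at 72 h. The 24 h call ended without any 1 DMSO array or without MEKi replicate 1 or 2 (adjusted p up to 0.0813). The 72 h call ended without DMSO replicate 1 or 2 or MEKi replicate 1 or 2 (adjusted p up to 0.104). The second probe set, 1417163_at, was dim, from 3.94 to 4.20 over the 12 arrays, and its differences were 0.00 and 0.03. Averaged with it, the 72 h difference was 0.22 with an adjusted p of 0.102.

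Dusp16, a phosphatase that prefers JNK and p38 and shuttles between nucleus and cytoplasm, was called at 72 h. Its probe set 1418401_a_at read 9.43, 9.79 and 9.67 in MEKi arrays at 72 h, against 9.07, 8.93 and 9.26 in DMSO arrays, without overlap. The difference was 0.54 ± 0.12, 1.46-fold higher, with an adjusted p of 0.0228. This call ended without DMSO replicate 1 or 2 or MEKi replicate 2 or 3 (adjusted p up to 0.102). At 24 h it read 9.84, 9.87 and 9.54 in MEKi arrays, against 9.55, 9.35 and 9.37 in DMSO arrays. Here the ranges overlapped by 0.01, between MEKi replicate 3 and DMSO replicate 1, and the difference of 0.33 ± 0.10 was not called (adjusted p = 0.091). Without MEKi replicate 3 it was called, at an adjusted p of 0.0211. The effects at the 2 times differed by 0.22, with a 95% interval from -0.14 to 0.57 and an adjusted p of 0.603. The other probe set, 1440615_at, was dim, from 3.15 to 3.88, and was not called at 24 h (0.05) or 72 h (0.33, adjusted p = 0.168).

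**Figure D3:**
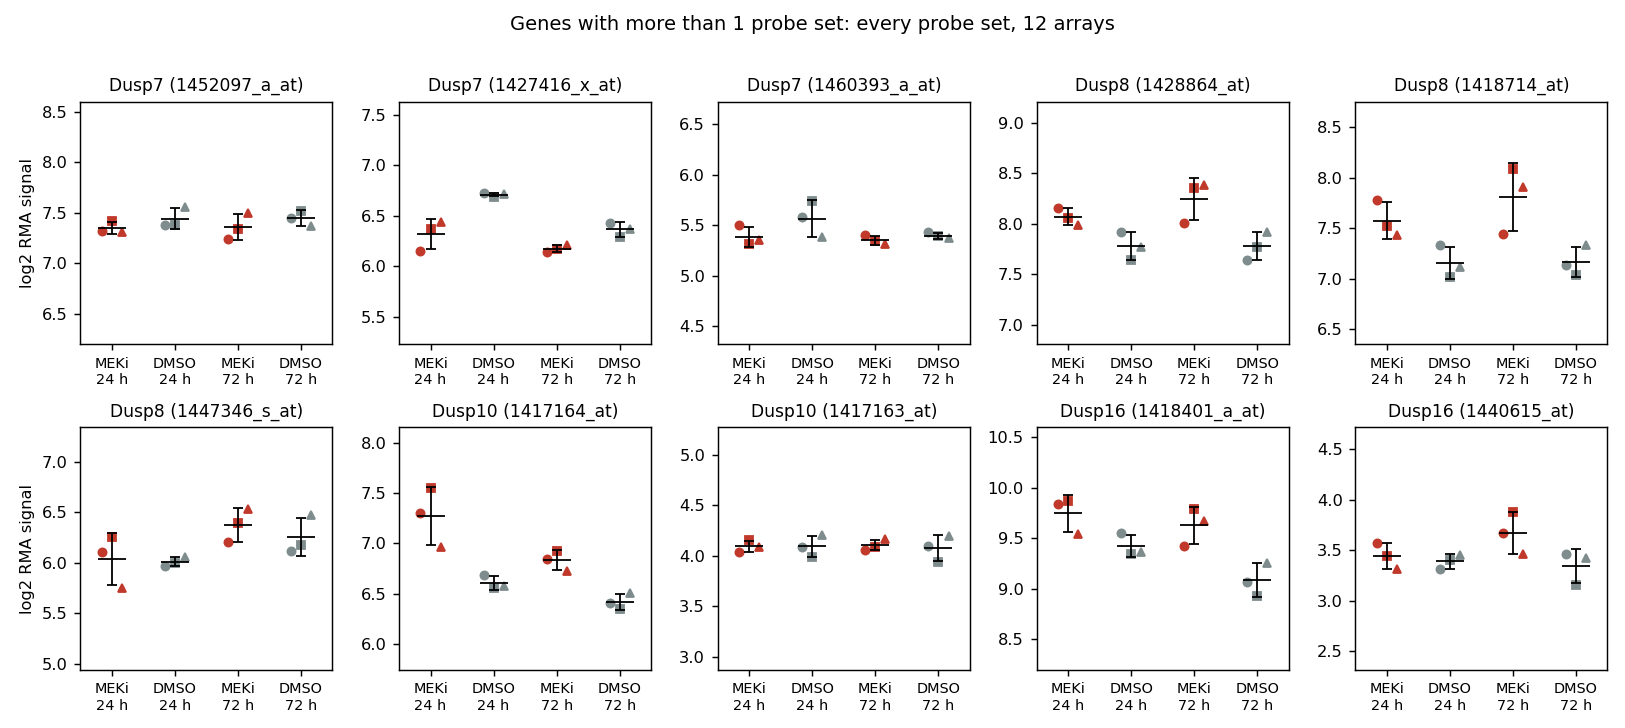
Log2 RMA signal (y axis) of every probe set of the 4 genes with more than 1, in MEKi (red) and DMSO (grey) arrays at 24 h and 72 h (x axis), with replicates 1, 2 and 3 as circles, squares and triangles and the mean ± SD (n = 3) in black. MEKi arrays lie above DMSO arrays at 2 of the Dusp8 probe sets, and the dim probe sets of Dusp10 and Dusp16 stay near 4.09 and 3.46 on average.

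One MEKi array per time lay closest to DMSO at most of these genes. Of the 8 probe sets whose groups were apart at 24 h, MEKi replicate 3 was the nearest to the DMSO mean at 7, all but Dusp2. Over all probe sets with groups apart at 24 h it was the nearest at 54.8%. Of the 8 at 72 h, MEKi replicate 1 was the nearest at 6, those of Dusp4, Dusp5, Dusp6, Dusp8 and Dusp16, where it was at 35.4% over all probe sets. Against 6 called probe sets with all arrays at 24 h, 8 were called without MEKi replicate 3 and 2 without MEKi replicate 1 or 2. At 72 h the count was 5 with all arrays and 5 without MEKi replicate 1.

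Most members that moved with time were lower at 72 h. In MEKi arrays 4 of the 15 probe sets were called lower at 72 h than at 24 h, where 13.9% of all probe sets were, and in DMSO arrays 5 were, where 14.3% of all probe sets were. Dusp1 fell by 0.85 ± 0.15 in MEKi arrays (adjusted p = 0.00273) and fell by 0.73 ± 0.10 in DMSO arrays (adjusted p = 0.00127). Dusp4 likewise fell by 0.61 ± 0.11 in MEKi arrays (adjusted p = 0.00235) and fell by 0.93 ± 0.07 in DMSO arrays (adjusted p = 8.61e-05). Both genes thus had time differences at least as large in size as their MEKi differences of 0.53 and -0.51 at 24 h, although the sizes were not tested against each other. Dusp6 differed by -0.41 ± 0.17 in MEKi arrays, which was not called (adjusted p = 0.116), and fell by 0.53 ± 0.09 in DMSO arrays (adjusted p = 0.00359). Dusp2 fell by 0.43 ± 0.09 in MEKi arrays (adjusted p = 0.00715) and differed by 0.02 in DMSO arrays (95% interval -0.14 to 0.18). In MEKi arrays Dusp10 fell by 0.44 ± 0.13 (adjusted p = 0.0387). In DMSO arrays Dusp16 fell by 0.34 ± 0.10 (adjusted p = 0.0386) and the Dusp7 probe set 1427416_x_at fell by 0.34 ± 0.07 (adjusted p = 0.00767). The calls of Dusp10 and Dusp16 were lost when the arrays were quantile normalized again (adjusted p = 0.0829 and 0.137). Both were also lost when each gene's probe sets were averaged (adjusted p = 0.0786 and 0.113). Dusp10 also lost its call without 24 h MEKi replicate 1 or 2 or any 1 of the 72 h MEKi arrays (adjusted p up to 0.115), and Dusp16 without any 1 of the 24 h DMSO arrays or without 72 h DMSO replicate 1 or 2 (adjusted p up to 0.134). The arrays of the 2 times also differed in the Dap spike-in control, whose 3′ signal exceeded its 5′ signal by 1.96 to 2.16 at 24 h and by 1.34 to 1.47 at 72 h. Its part in the time differences was not tested.

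**Figure D4:**
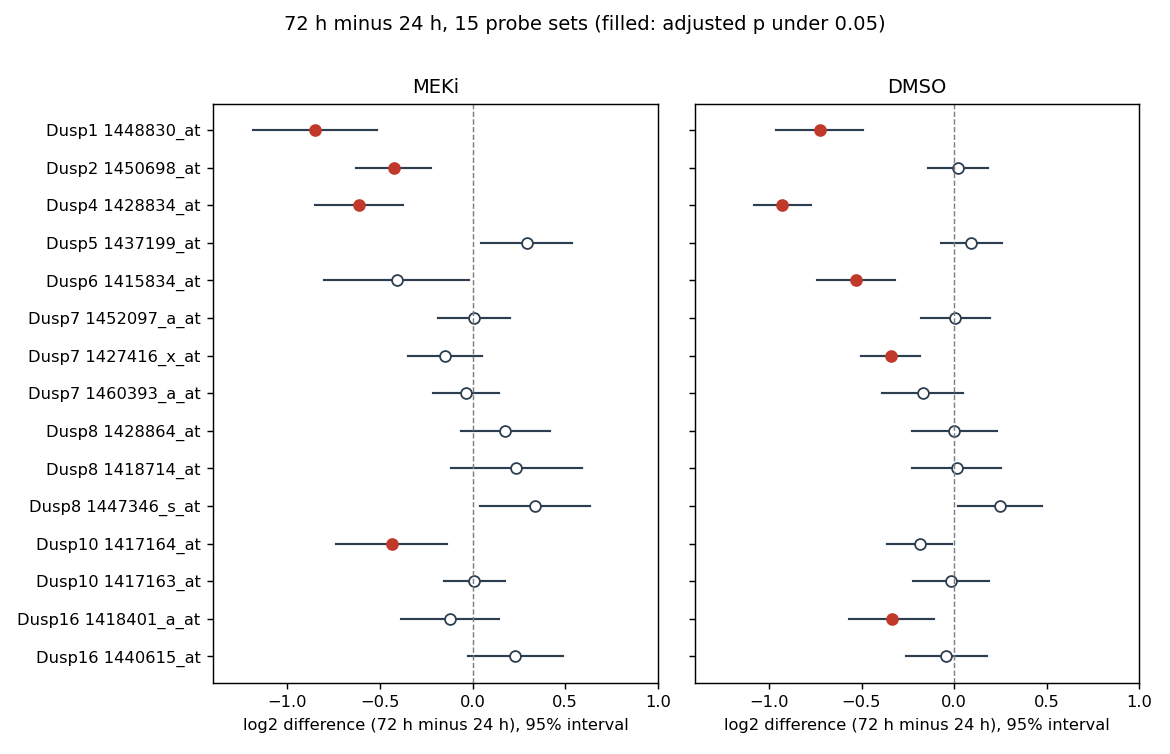
Log2 difference between 72 h and 24 h (x axis) for each of the 15 probe sets (y axis) in MEKi arrays (left) and DMSO arrays (right), with its 95% interval from limma and 3 arrays per group. Filled points have an adjusted p under 0.05. All filled points, 4 in MEKi and 5 in DMSO, lie left of 0, and those of Dusp1 and Dusp4 are filled in both panels.

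The order of the 4 groups was not the same for all members. For Dusp4 the order from high to low was DMSO at 24 h, MEKi at 24 h, DMSO at 72 h and MEKi at 72 h, with no neighbours overlapping. For Dusp1 it was MEKi at 24 h, DMSO at 24 h, MEKi at 72 h and DMSO at 72 h, and the last 2 steps overlapped. For Dusp10 both MEKi groups lay above both DMSO groups, with 24 h above 72 h in each, and no neighbours overlapped. Dusp16 had the same order with overlap between the first 3 groups. For Dusp2 the MEKi arrays at 24 h stood above the other 3 groups, which overlapped one another. For Dusp7 at its brightest probe set all neighbours overlapped.

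Other genes of the pathway, each read by its brightest probe set, were set beside the phosphatases. Of 7 Sprouty and Spred genes, which encode feedback inhibitors of RAS and RAF, 5 were lower in MEKi arrays at each time, where 5.86% of all genes were at 24 h and 5.14% at 72 h. With each gene's probe sets averaged, 3 were lower and 1 higher at 72 h. Spry4 changed by -2.08 and Spred2 by -0.84 at 24 h, and Spred2 by -0.68 at 72 h. The Spry4 mean at 24 h was 3.94 in MEKi arrays, below the median probe set (5.363), and 6.02 in DMSO arrays. The median of the list was -0.72 at 24 h and -0.52 at 72 h, beside 0.01 over all genes at each time. Of 26 ERK-responsive transcription factors, 12 were lower and 3 higher at 24 h, and 6 were lower and 3 higher at 72 h. The average of each gene's probe sets gave 12 lower and 2 higher at 24 h, and 6 lower and 2 higher at 72 h. Of all genes, 5.86% were lower and 5.01% higher at 24 h, and 5.14% were lower and 4.03% higher at 72 h. Etv5, an ETS factor, changed by -4.06 ± 0.42 and Egr1, an immediate early zinc finger factor, by -3.16 ± 0.14 at 24 h. Their MEKi means at 24 h, 4.88 (SD 1.04) for Etv5 and 4.79 (SD 0.19) for Egr1, were also below the median probe set. Egr1 (-3.14 ± 0.80) and Myc (-1.52 ± 0.23) had the largest changes of this list at 72 h. The Egr1 call there had an adjusted p of 0.0445 by limma. Its MEKi arrays at 72 h scattered widely, with an SD of 2.14, against 0.31 in DMSO arrays. Of 16 other ERK-responsive genes, 3 were lower at 24 h, among them Hmga2 (-1.18) and Ccnd1, the gene of cyclin D1 (-0.85), and 3 were higher and 1 lower at 72 h. Averaged over each gene's probe sets, 5 of these 16 were lower at 24 h.

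A few kinases of the pathway were called, in both directions. Of all genes, 5.01% were called higher and 5.86% lower at 24 h, and 4.03% higher and 5.14% lower at 72 h. The counts of these small lists were not tested against those shares. Of 12 MAP kinases, 1 was lower at 24 h, Mapk12 (p38 gamma, -0.47), and 1 was higher at 72 h, Mapk9 (JNK2, 0.51). The average of each gene's probe sets gave 1 higher and 1 lower at 24 h. Of 17 RAS, RAF and MAP kinase kinase genes, Mras was higher (0.44) and Map2k3 lower (-0.34) at 24 h. At 72 h Map2k6, a p38 activator, was lower (-1.47), as was Nras (-0.30). After averaging each gene's probe sets, 1 of the 17 was lower and 0 higher at 72 h, and 1 was higher and 2 lower at 24 h. A list of 17 genes upstream of JNK and p38 held kinases and the adaptors Tab1 and Tab2. Of these genes, Map3k8 (0.64) and Map3k5 (0.54) were higher at 24 h, and at 72 h Map3k5 was higher (0.47) and Map3k20 lower (-0.46). Averaging each gene's probe sets gave 2 higher and 1 lower at 24 h, and 1 higher and 0 lower at 72 h. Of 8 effector kinases of p38 and ERK, limma called 0 at 24 h, with 5 at an unadjusted p under 0.05, and 1 higher and 2 lower at 72 h. With each gene's probe sets averaged, 2 of the 8 were higher and 1 lower at 24 h. Scaffolds and adaptors had 2 higher and 3 lower of 14 at 24 h and 3 higher at 72 h, Pea15a, Mapk8ip1 and Grb2. At 24 h the largest changes were those of Arrb1, which encodes a beta-arrestin (-0.78), Sh3rf1 (-0.41) and Mapk8ip1, a JNK scaffold (0.36). At 72 h Pea15a, a cytoplasmic anchor of ERK, was higher by 0.90, Mapk8ip1 by 0.83 and Grb2 by 0.42. When each gene's probe sets were averaged, 2 of the 14 were higher at 72 h, and 3 were higher and 3 lower at 24 h.

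Other phosphatases were also measured. Of 12 genes of tyrosine and serine/threonine phosphatases or their subunits, limma called 0 at each time. At an unadjusted p under 0.05 there were 0 at 24 h and 3 at 72 h, and averaging each gene's probe sets called 0 and 1. Of 25 atypical and other dual-specificity phosphatases, 2 were higher and 3 lower at 24 h, where 5.01% and 5.86% of all genes were. At 72 h 3 were higher and 4 lower, where 4.03% and 5.14% of all genes were. By the average of each gene's probe sets, 3 were higher and 3 lower at each time. The largest changes were those of Cdc14a (-0.57) and Dusp18 (0.42) at 24 h, and of Cdc25b (-0.93), a mitotic activator of cyclin-dependent kinases, and Epm2a (-0.68) at 72 h. Among the called genes with a DUSP name, chosen after their values were seen, Dusp18 was higher at 72 h too (0.40), Dusp3, a small phosphatase of ERK and JNK, was higher at 24 h (0.30) and 72 h (0.43), and Dusp14 was higher at 72 h (0.56).

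The genes whose signal followed a member most closely over the 12 arrays were taken from 10846 genes. For Dusp6 they were Adam12 (Pearson r = 0.98), Elk3 (r = 0.98) and Hk1 (r = 0.98). Adam12, a metalloprotease gene, averaged 8.19 in MEKi arrays and 10.33 in DMSO arrays at 24 h, and 7.24 in MEKi arrays and 9.58 in DMSO arrays at 72 h. Elk3 encodes an ETS factor and Hk1 a hexokinase. For Dusp4 they were Abl1, Mtap and Prpf4, each at r = 0.98. For Dusp10 they were Rnf128 (r = 0.97), Ap3s1 (r = 0.96) and Nedd4l (r = 0.95), and for Dusp16 they were Rhob (r = 0.98), Epb41l4a (r = 0.97) and Sptan1 (r = 0.94). These correlations carry the differences between the 4 groups and are a description over 12 arrays, not a test.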

How the data were processed

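RNA from B16-OVA cells was hybridised to 12 Affymetrix Mouse Genome 430 2.0 arrays, 3 in each of 4 groups. Labelling by the authors used 200 ng of total RNA and a 3′ in vitro transcription kit, and normalization was by RMA, per the labels. The deposited values were log2 signals to 2 decimals, and no genome build was given in the sources used here. RMA brings the arrays to similar distributions, so every difference is relative to the whole array. The number of arrays limits the precision.

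Of 45101 probe sets, 64 controls were left out. The platform annotation gave 1 gene for 34945 of the rest, several for 932 and none for 9160. Differences were tested with limma 3.58.1 in R 4.3.3 (lmFit and eBayes), two-sided, on the 6 arrays compared, or all 12 for the difference of effects, with Benjamini-Hochberg adjustment over 45037 probe sets. Errors are SE, and 95% intervals are not adjusted. A gene was represented by its brightest probe set. On simulated data of the 24 h comparison, 35 of 50 probe sets changed by 1.5-fold were called and 45 of 50 changed by 2-fold. At 1.5-fold it was 32 of 50 for the 72 h comparison and 18 of 50 for the difference of effects. For time it was 27 of 50 in DMSO and 24 of 50 in MEKi. The simulation changed far fewer probe sets than the data had calls, so its rates may not carry over. All member genes were named. From each pathway list at most 3 genes with the largest called changes were named, and for Dusp6, Dusp4, Dusp10 and Dusp16 the 3 genes with the highest correlation. The members and lists were chosen with earlier results of these data known.

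Same-numbered MEKi and DMSO arrays deviated together at 72 h (correlation of deviations from the group means 0.13 to 0.189, other pairs -0.127 to -0.03). At 24 h the same correlation was 0.073 to 0.151 over all probe sets and 0.207 to 0.283 over the probe sets above the median (other pairs -0.156 to 0.032 and -0.288 to 0.002). This check is from the data alone. The tests reported do not use the pairing, and the value with the replicate number as a block stands beside each MEKi result whose call it changed. Alternatives were 1 fit of all arrays, the replicate number as a block, centring, a second quantile normalization, a trended robust prior, array weights, brighter probe sets, leaving out each array, and averaging all probe sets of a gene.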

Additional observations from a re-analysis of the deposited data

Results flagged for a closer look

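The effect of MEKi on Dusp2 differed between the times by a test of the difference itself. Its log2 difference between MEKi and DMSO arrays was 0.41 at 24 h and -0.04 at 72 h, a change of -0.45 (SE 0.11, adjusted p = 0.0498 by limma over 45037 probe sets). The 3 MEKi arrays at 24 h were all above the other 9 arrays. The call was lost without 1 array in 10 of 12 cases (adjusted p up to 0.123) and with arrays centred on their medians (0.0562). Groups of 3 arrays are too small for the search for single outlying samples.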

How the results depend on the processing

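Without 1 array at a time the number of called member probe sets ranged from 2 to 8 at 24 h, against 6 with all arrays, and from 1 to 5 at 72 h, against 5. It was 2 at 24 h without MEKi replicate 1 or 2 and 3 without DMSO replicate 2 or 3. At 72 h it was 1 without DMSO replicate 1 or 2 or MEKi replicate 2 and 2 without MEKi replicate 3. For the difference of effects limma called 0 or 1 without 1 array, and 0 with arrays centred on their medians, with 2 at an unadjusted p under 0.05 in the centred fit. Dusp6 at both times and Dusp2 at 24 h kept their calls under every alternative. With the trended robust prior, array weights or brighter probe sets 9 probe sets were called at 24 h, those of Dusp8 (1428864_at and 1418714_at) and Dusp16 being added. With the replicate block 7 were called at 24 h, Dusp8 1418714_at being added (adjusted p = 0.0239), and 6 at 72 h, Dusp1 being added. The replicate block changed no other call.

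Signs that turned belonged to differences near 0 that were not called in the tests reported above. With arrays centred on their medians Dusp7 (1452097_a_at) was at -0.0067 for the difference of effects, -0.0567 for time in DMSO and -0.0633 for time in MEKi, and Dusp2 at -0.0433 for time in DMSO. With array weights Dusp7 was at -0.0203 for the difference of effects and -0.0099 for time in MEKi. Averaged over its probe sets Dusp7 was at -0.1689 for time in DMSO, which was called lower (adjusted p = 0.0474). That average includes 1427416_x_at (-0.34, called lower) and 1460393_a_at (-0.17, not called). The averages for time in MEKi were -0.0578 for Dusp7 and 0.055 for Dusp16. Without 1 array, Dusp5 ranged from -0.06 to 0.11 at 24 h and Dusp2 from -0.1 to 0.04 at 72 h. For the difference of effects the ranges were -0.25 to 0.05 for Dusp1, -0.0083 to 0.3417 for Dusp6 and -0.0667 to 0.0633 for Dusp7. For time they were -0.015 to 0.06 for Dusp2 in DMSO, -0.03 to 0.0667 for Dusp7 in DMSO and -0.06 to 0.07 for Dusp7 in MEKi. The cause of these changes was not tested. The probe sets 1417163_at of Dusp10 and 1440615_at of Dusp16 were below the median probe set, where small differences are hard to measure.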
